A study of Homo sapiens with 9 samples.

Results

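Osimertinib and cisplatin were set directly against each other in macrophage-like THP-1 cells, and the genes that separate the 2 drugs are described here. The comparison rests on 6 of the 9 arrays of the study, 3 with osimertinib and 3 with cisplatin, and the 3 vehicle arrays give each gene's reference level. It covered 7442 genes of the 14884 that the deposited table names: rows with 1 gene symbol were kept, the brightest row stood for a gene, and genes at or above a mean level of 4.28 were tested. THP-1 is a human monocytic leukaemia line, and all groups were first differentiated with the phorbol ester PMA to a resting macrophage-like state (M0). The cells then received vehicle, 0.5 µM cisplatin or 100 nM osimertinib for 16 h, each in 3 replicates that the labels call biological. Doses differ between the drugs and were not matched for effect, so a difference is between these 2 treatments and not between the compounds at equal exposure. Each RNA was read on 1 Affymetrix Human Gene 2.0 ST array, whose probes lie along the exons of each transcript.

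Osimertinib is a covalent kinase inhibitor designed against mutant EGFR, the receptor of epidermal growth factor, which signals through the RAS, RAF, MEK and ERK cascade to immediate-early genes. Cisplatin is a platinum compound that crosslinks DNA and is known to activate the DNA damage response and p53. Macrophages answer many stresses with secreted proteins, among them chemokines and matrix proteases, and several of those genes respond to ERK, AP-1 and NF-kB. EGFR itself read 2.73 to 3.03 over the 9 arrays and ERBB3 2.71 to 3.14, both below the level limit for testing. CDKN1A and MDM2, the best known p53 targets, have no named row here and were not analysed.

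All values are on a log2-like intensity scale on which a difference of 1 is 2-fold, and n is 3 arrays a group throughout. The arrays of the drugs were alike: cisplatin arrays correlated with each other at 0.983 to 0.991, osimertinib arrays at 0.985 to 0.988, and arrays of different drugs at 0.974 to 0.985. Cisplatin 1 and osimertinib 1 stood apart from the rest. In a principal component analysis of the 6 drug arrays, the first component (36.3% of the variance) put cisplatin 1 at -15.5 and osimertinib 1 at 11.4, with the other 4 arrays between -1.47 and 2.79. The second component (25.2%) ran from the cisplatin arrays at -9.90 to 2.10 to the osimertinib arrays at 0.101 to 7.84, with cisplatin 1 above osimertinib 1. The median level over tested genes was 5.65 on cisplatin 1 and 5.81 on osimertinib 1, the lowest and the highest of the 9. Counts are therefore also given without each of these arrays.

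Of the 7442 genes, 130 differed between the drugs at an adjusted p under 0.05 (limma, Benjamini-Hochberg over all tested genes), which is 1.75% of those tested. Of these, 57 (0.766%) were higher with osimertinib and 73 (0.981%) with cisplatin. At an unadjusted limma p under 0.05 there were 870 genes (11.7%) in either direction. The differences were moderate. The median absolute difference of the called genes was 0.50, 45 genes (0.605%) differed by at least 1.5-fold, and 7 (0.0941%) by at least 2-fold. Of those 7, HSPA4L, ARRDC3, ZNF138, the microRNA gene MIR548G and GPCPD1 (0.0672%) were higher with osimertinib, and STC1 and MMP1 (0.0269%) were higher with cisplatin. In all 130 called genes the 3 osimertinib arrays lay entirely on 1 side of the 3 cisplatin arrays, against 1066 genes (14.3%) among all tested. The median difference over all tested genes was 0.0098, with 3951 genes above 0 and 3489 below. Without cisplatin 1 the counts were 112 higher with cisplatin and 35 higher with osimertinib, and without osimertinib 1 they were 52 and 24. The total also fell from 130 to 67 without cisplatin 2, 54 without cisplatin 3, 76 without osimertinib 1 or osimertinib 3, and 75 without osimertinib 2. With RNA from whole cultures, fewer cells of a kind and less RNA per cell cannot be told apart.

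**Figure D1:**
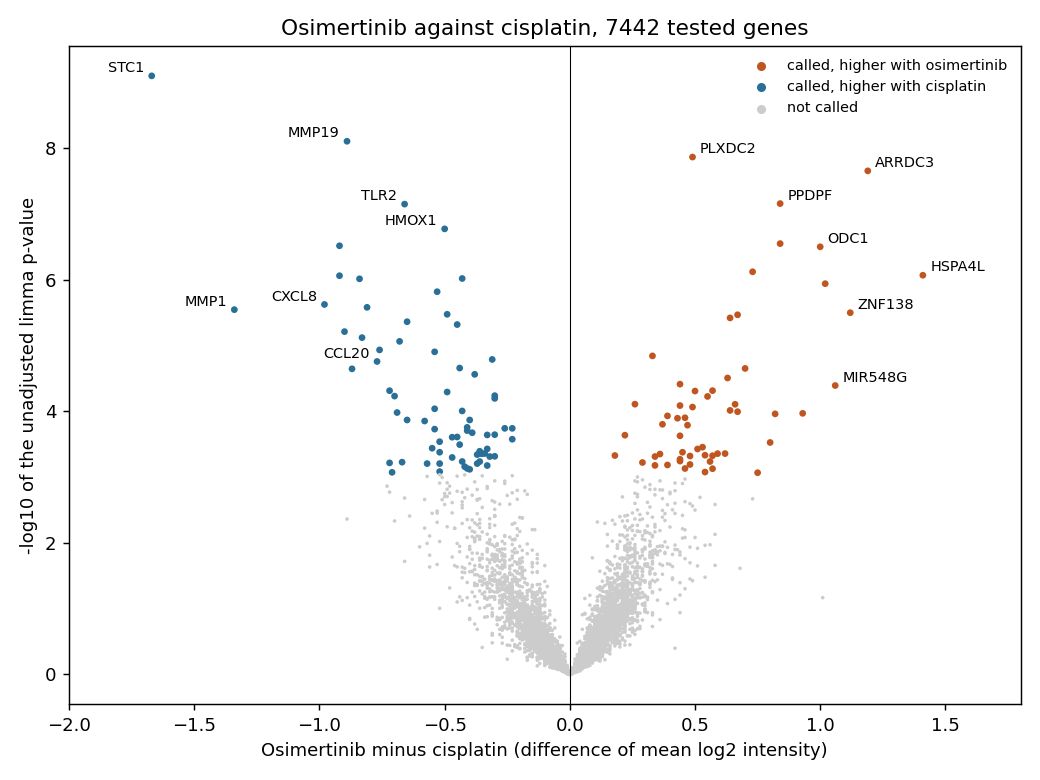
Difference between the drugs for 7442 tested genes, as osimertinib minus cisplatin in mean log2 intensity (x axis, n = 3 arrays a group) against -log10 of the unadjusted limma p-value (y axis), with the 57 genes called higher with osimertinib in orange and the 73 called higher with cisplatin in blue. STC1 lies farthest left at -1.67 and HSPA4L farthest right at 1.41.

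Genes higher with osimertinib were led by a co-chaperone, an arrestin and enzymes of small-molecule metabolism. HSPA4L, an HSP110-family chaperone that helps HSP70 release its nucleotide, read 6.81, 6.38 and 6.16 with osimertinib, 5.19, 4.96 and 4.97 with cisplatin and 5.07, 4.57 and 4.74 with vehicle. The osimertinib arrays stood above the other 6, and the difference between the drugs was 1.41 (SE 0.16, 2.66-fold, adjusted p = 0.000477). ARRDC3, an alpha-arrestin that links membrane receptors to ubiquitin ligases and endosomes, read 8.35, 8.33 and 8.23 with osimertinib, 6.90, 7.22 and 7.21 with cisplatin and 6.90, 7.26 and 7.09 with vehicle. Cisplatin arrays covered the same range as vehicle arrays, and osimertinib arrays were about a full log2 unit above both (difference 1.19, SE 0.10, 2.29-fold, adjusted p = 4.08e-05). The other alpha-arrestins tested did not pass: ARRDC1 differed by 0.23 (95% interval -0.03 to 0.49), ARRDC2 by -0.12 (-0.37 to 0.13), ARRDC4 by -0.03 (-0.21 to 0.16) and TXNIP by 0.01 (-0.16 to 0.18). RAB11FIP4, an effector of RAB11 in endosome recycling, read 7.24, 7.30 and 7.24 with osimertinib against 6.33, 6.63 and 6.72 with cisplatin and 5.89 to 6.22 with vehicle (difference 0.70, SE 0.11, adjusted p = 0.00452). All 3 calls held in each of the 9 fits that left out 1 array.

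The upstream stretch of ARRDC3, the gene of this direction with the smallest adjusted p but for PLXDC2, is shown with the GC box GGGCGG in capitals on either strand, in the 150 bases before its first listed start (RefSeq, GRCh38.p14).
ARRDC3, chr5:91383318-91383467, minus strand: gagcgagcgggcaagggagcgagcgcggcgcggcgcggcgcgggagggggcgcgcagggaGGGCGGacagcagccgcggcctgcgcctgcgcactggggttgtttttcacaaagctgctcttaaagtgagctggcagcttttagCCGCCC
Within 250 bases the GC box was found for 36 of 45 genes called higher with osimertinib and 30 of 53 called higher with cisplatin, against 68.3% of tested genes and 42.3% of all promoters.

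ODC1, ornithine decarboxylase, which makes the polyamine precursor putrescine, read 8.51, 8.41 and 8.16 with osimertinib, 7.18, 7.49 and 7.42 with cisplatin and 7.03, 6.80 and 7.02 with vehicle. The 3 groups did not overlap, and osimertinib was 1.00 above cisplatin (SE 0.11, adjusted p = 0.000233), just under 2-fold before rounding. GPCPD1, which splits glycerophosphocholine, read 6.38, 6.10 and 6.17 with osimertinib and 5.15, 5.36 and 5.08 with cisplatin, where vehicle read 5.01, 5.36 and 5.07. Here too cisplatin shared the vehicle range (difference 1.02, SE 0.12, adjusted p = 0.00053). GALNT12, a transferase that starts mucin-type O-glycans, read 8.41, 8.23 and 8.29 with osimertinib, 7.33, 7.55 and 7.54 with cisplatin and 6.62 to 6.87 with vehicle, so that cisplatin lay between the other groups (difference 0.84, SE 0.088, adjusted p = 0.000233). GALM, the mutarotase that prepares galactose for its breakdown, showed the same order, with osimertinib at 5.78 to 5.90, cisplatin at 5.16 to 5.19 and vehicle at 4.09 to 4.55 (difference 0.67, SE 0.12, adjusted p = 0.0132). Its call ended without cisplatin 3 (adjusted p = 0.0619), osimertinib 1 (0.0601) or osimertinib 3 (0.0511). PREPL, a serine hydrolase related to prolyl endopeptidase, read 7.35, 7.28 and 7.38 with osimertinib, 6.50 to 6.71 with cisplatin and 6.47 to 6.70 with vehicle (difference 0.73, SE 0.084, adjusted p = 0.000477).

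Several genes higher with osimertinib encode nuclear proteins. ZNF138, a zinc finger protein of the KRAB class, read 6.11, 5.47 and 5.64 with osimertinib, 4.57, 4.75 and 4.52 with cisplatin and 5.36, 5.44 and 5.58 with vehicle. The osimertinib and vehicle arrays overlapped and the cisplatin arrays lay below both (difference 1.12, SE 0.15, 2.18-fold, adjusted p = 0.0011). ZNF610 read 5.56, 4.95 and 5.34 with osimertinib, 4.61, 4.54 and 4.25 with cisplatin and 5.09 to 5.31 with vehicle, again with cisplatin lowest (difference 0.82, SE 0.15, adjusted p = 0.0135). ZNF627 differed by 0.75 (SE 0.17, adjusted p = 0.049) with cisplatin at 4.20 to 4.64 and vehicle at 4.11 to 4.48. Related zinc finger genes share sequence, and an array may not part them. The call of ZNF610 ended without cisplatin 3 (adjusted p = 0.080), osimertinib 1 (0.0624) or osimertinib 3 (0.0597). That of ZNF627 ended on leaving out any 1 array other than osimertinib 2 (adjusted p = 0.0583 to 0.185). PRDM4, a zinc finger protein with a PR domain, read 6.99, 6.78 and 6.88 with osimertinib, 6.16 to 6.25 with cisplatin and 5.83 to 6.01 with vehicle (difference 0.67, SE 0.087, adjusted p = 0.0011), and held in all 9 such fits.

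The 2 G-type cyclins were both higher with osimertinib. CCNG2, a target of FOXO transcription factors, read 5.41, 5.05 and 4.63 with osimertinib, 4.32, 4.32 and 4.05 with cisplatin and 4.15 to 4.23 with vehicle (difference 0.80, SE 0.16, adjusted p = 0.0267). CCNG1, a p53 target, read 7.13, 7.06 and 7.08 against 6.60, 6.63 and 6.64, with vehicle at 6.22 to 6.56 (difference 0.47, SE 0.090, adjusted p = 0.0177). For CCNG2 the cisplatin and vehicle means, 4.23 and 4.2, were below the level limit of 4.28, which the gene passed through its osimertinib level. The drugs did not overlap in either cyclin gene, but neither call held on leaving out each array. CCNG2 lost it without osimertinib 1 or 2 or any cisplatin array (adjusted p = 0.0518 to 0.118), and CCNG1 without cisplatin 2 or 3 or any osimertinib array (0.0595 to 0.0754). PPDPF, named for pancreatic progenitor differentiation, had narrow groups: 7.46, 7.43 and 7.41 with osimertinib, 6.62, 6.61 and 6.55 with cisplatin and 6.09 to 6.32 with vehicle (difference 0.84, SE 0.079, adjusted p = 8.71e-05). PCLO, a scaffold protein of synapses, read 5.12 to 5.32 against 4.03 to 4.46, with vehicle at 3.73 to 4.46 (difference 0.93, SE 0.17, adjusted p = 0.0135). With a cisplatin mean of 4.31 and a vehicle mean of 4.09, PCLO passed the level limit of 4.28 through its osimertinib level. Its call ended without cisplatin 1 (adjusted p = 0.051), osimertinib 1 (0.0631) or osimertinib 3 (0.0577).

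The gene that separated the drugs most was higher with cisplatin. STC1, stanniocalcin-1, a secreted glycoprotein of calcium and phosphate handling, read 4.44, 4.57 and 4.88 with osimertinib, 6.30 on each cisplatin array and 7.32, 7.50 and 7.42 with vehicle. The 3 groups did not overlap, cisplatin lay between the others, and the drugs differed by -1.67 (SE 0.11, 3.19-fold, adjusted p = 5.84e-06). The 3 cisplatin values are identical in the deposited table, so the spread there is unknown and the SE may be too small. STC1 is also the member called among 15 tested genes of the hypoxia list (1.75% of all tested genes). The median difference there was 0.033, and HK2, hexokinase, differed by -0.23 (adjusted p = 0.146).

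**Figure D2:**
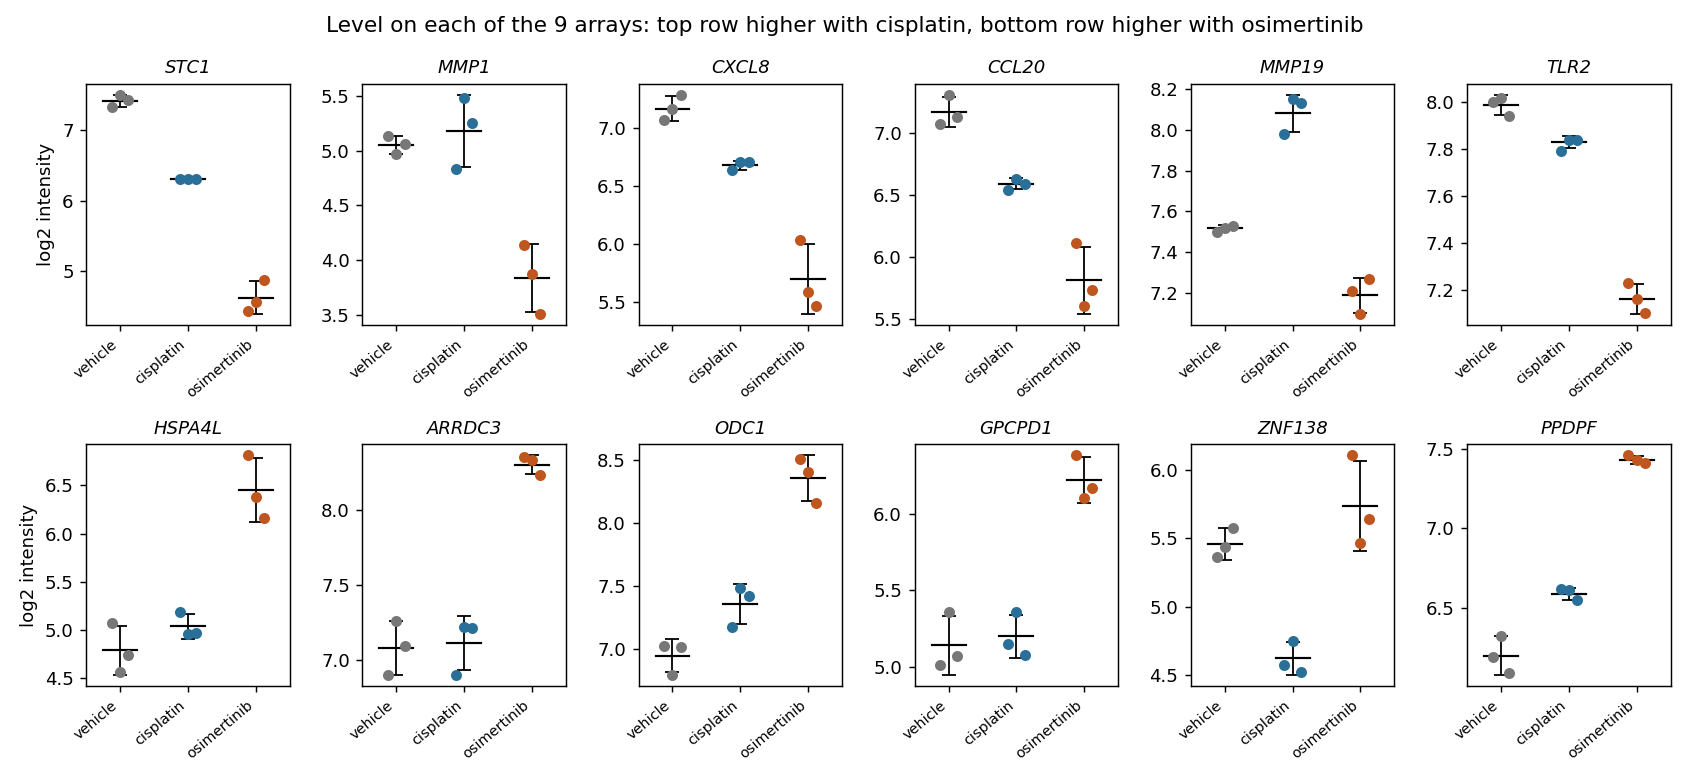
Level of 12 genes on each of the 9 arrays (log2 intensity, own y axis for each gene, not starting at 0), with the group mean as a line and the SD as an error bar (n = 3 arrays). In the top row the osimertinib points lie below the cisplatin points (STC1 at 4.44 to 4.88 against 6.30), and in the bottom row above them (HSPA4L at 6.16 to 6.81 against 4.96 to 5.19).

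Matrix proteins and their proteases had 4 of 18 tested genes higher with cisplatin (0.981% of all tested genes) and 0 higher with osimertinib (0.766%), at a median of -0.113. MMP1, interstitial collagenase, read 4.14, 3.87 and 3.51 with osimertinib, 4.83, 5.48 and 5.25 with cisplatin and 5.13, 4.97 and 5.06 with vehicle. Cisplatin and vehicle overlapped, and osimertinib was 1.34 below cisplatin (SE 0.17, 2.54-fold, adjusted p = 0.00105). Every osimertinib value of MMP1 lay below the level limit of 4.28, which the gene passed through its cisplatin and vehicle levels. Whether so low a level affects the size of the difference was not tested. MMP19, a basement membrane protease, read 7.21, 7.10 and 7.27 with osimertinib, 7.98, 8.15 and 8.13 with cisplatin and 7.50, 7.52 and 7.53 with vehicle, so the drugs lay on opposite sides of vehicle (-0.89, SE 0.070, adjusted p = 2.89e-05). SPP1, osteopontin, read 11.17 to 11.29 against 11.49 to 11.61 (-0.31, SE 0.047, adjusted p = 0.00365; 0.120 without trend and robust fitting), and vehicle read 11.41 to 11.54. TIMP1, an inhibitor of metalloproteinases, read 7.97 to 8.33 against 8.45 to 8.55, with vehicle at 8.20 to 8.31 (-0.37, adjusted p = 0.0344). The TIMP1 call ended without any 1 vehicle array, cisplatin 2 or 3, or osimertinib 2 or 3 (adjusted p = 0.0525 to 0.131). The lysosomal protease CTSL had a difference of -0.33 and did not pass (adjusted p = 0.0667). Thrombospondin, THBS1, read 4.20 to 4.85 with osimertinib and 4.70 to 5.21 with cisplatin, which overlap, with a difference of -0.43 (95% interval -0.79 to -0.07, adjusted p = 0.301).

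Chemokines, the secreted attractants of leukocytes, had 4 of 11 tested members higher with cisplatin (0.981% of all tested genes) and 0 higher with osimertinib (0.766%). Their median difference was -0.328, and 10 of the 11 had a negative difference. CXCL8, interleukin-8, which attracts neutrophils, read 6.04, 5.59 and 5.47 with osimertinib, 6.64, 6.71 and 6.71 with cisplatin and 7.07, 7.17 and 7.29 with vehicle (-0.98, SE 0.12, 1.97-fold, adjusted p = 0.000977). CCL20, the ligand of CCR6, read 6.11, 5.60 and 5.73, then 6.54, 6.63 and 6.59, then 7.07, 7.31 and 7.13 in the same order (-0.77, SE 0.12, adjusted p = 0.0038). In both genes the 3 groups did not overlap, with vehicle highest and osimertinib lowest. CCL5, which attracts T cells and monocytes, had another order: 9.70, 9.68 and 9.66 with osimertinib, 10.04, 10.16 and 10.17 with cisplatin and 6.18 to 6.38 with vehicle. The drugs differed by -0.45 (SE 0.060, adjusted p = 0.00136) while both lay over 3 log2 units above vehicle. CCL4 read 5.36, 5.38 and 5.83 against 6.17, 6.29 and 6.25, with vehicle at 5.18 to 5.89 (-0.71, SE 0.17, adjusted p = 0.0487), and its call ended without vehicle 1, any cisplatin array, or osimertinib 1 or 2 (adjusted p = 0.072 to 0.184). Its neighbour in function CCL3 differed by -0.66 (95% interval -1.04 to -0.29, adjusted p = 0.0825). CCL3L1, a near copy of CCL3 that the probes may not part from it and which is not in the chemokine list, read 7.41 to 7.82 against 8.18 to 8.30, with vehicle at 8.10 to 8.31 (-0.68, SE 0.097, adjusted p = 0.00221).

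The upstream stretches of CXCL8 and CCL20 are shown because these were the 2 chemokines with the largest differences. Each is the 150 bases before the first listed start in RefSeq (GRCh38.p14), written in the direction of the gene. Capitals mark a match on either strand to the AP-1 site TGANTCA in CXCL8 and to the NF-kB site GGGRNNYYCC in CCL20. R is A or G, Y is C or T and N is any base. Variants that depart from these letters were not searched for, so an unmarked stretch may still hold a site.
CXCL8, chr4:73740419-73740568, plus strand: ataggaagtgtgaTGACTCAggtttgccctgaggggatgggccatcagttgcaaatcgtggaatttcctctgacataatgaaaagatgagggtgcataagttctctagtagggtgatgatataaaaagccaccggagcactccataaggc
CCL20, chr2:227813692-227813841, plus strand: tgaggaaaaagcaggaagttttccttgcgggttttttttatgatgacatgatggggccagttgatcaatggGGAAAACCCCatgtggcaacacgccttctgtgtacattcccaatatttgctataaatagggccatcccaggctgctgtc
Within 250 bases before the start, the AP-1 letters on either strand were found for 8 of 53 genes called higher with cisplatin and 2 of 45 called higher with osimertinib that have a promoter entry, against 3.69% of 5861 tested genes and 6.60% of all 27305 promoters. The NF-kB site was found for 6 of 53 and 4 of 45, against 11.7% of tested genes and 9.57% of all promoters. The genes with an AP-1 match were C5AR2, CD226, CPA4, CXCL8, SLAMF8, TFPI2, TM4SF19 and UCN2, higher with cisplatin, and ELOVL5 and ZNF138, higher with osimertinib. A match describes the letters only, and the counts leave out sites that depart from them.

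Surface receptors, a granule protein and a calcium-binding protein were also among the 15 largest differences on the cisplatin side. CXCR4, the receptor of CXCL12, read 7.18, 7.21 and 7.02 with osimertinib, 7.78, 8.04 and 8.04 with cisplatin and 6.96, 6.97 and 6.62 with vehicle (-0.81, SE 0.10, 1.76-fold, adjusted p = 0.00102). CD22, a sialic acid-binding receptor known from B cells, read 6.49, 6.08 and 6.47 with osimertinib, 7.20, 7.21 and 7.39 with cisplatin and 7.29, 7.43 and 7.26 with vehicle, so only the osimertinib arrays of the 9 stood apart (-0.92, SE 0.11, adjusted p = 0.000477). ADGRG1, an adhesion G protein-coupled receptor, read 5.07 to 5.21 against 5.82 to 6.10, with vehicle between them at 5.67 to 5.75 (-0.84, SE 0.098, adjusted p = 0.000477). PRF1, perforin, the pore-forming protein of cytotoxic granules, read 5.02, 4.90 and 4.82 against 5.53, 6.01 and 5.89, with vehicle at 5.11 to 5.25 (-0.90, SE 0.12, adjusted p = 0.00168). S100A9, a calcium-binding protein of myeloid cells, read 4.47, 4.04 and 4.26 against 5.11, 5.02 and 5.14, with vehicle at 4.56 to 4.60 (-0.83, SE 0.12, adjusted p = 0.00201). In ADGRG1, PRF1 and S100A9, as in MMP19, the vehicle arrays lay between the drugs. The osimertinib mean of S100A9, 4.26, was below the level limit of 4.28. Each of these 5 calls held in all 9 fits that left out 1 array.

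Secreted or intracellular proteins of other kinds completed the leading genes. IGFBP3, a carrier of insulin-like growth factors, read 4.93, 4.36 and 4.52 with osimertinib, 5.39, 5.46 and 5.56 with cisplatin and 5.46 to 5.67 with vehicle (-0.87, SE 0.14, adjusted p = 0.00452). CPA4, a carboxypeptidase, read 6.22, 6.09 and 6.10 against 6.84, 6.85 and 7.0, both above vehicle at 5.00 to 5.46 (-0.76, SE 0.11, adjusted p = 0.00287). NRIP3, a nuclear receptor-interacting protein, read 7.17, 6.87 and 6.78 against 7.74, 7.90 and 7.93, with vehicle at 7.79 to 7.96 (-0.92, SE 0.097, adjusted p = 0.000233). NRAP, an anchoring protein described in muscle, read 4.24 to 4.53 against 4.96 to 5.30, with vehicle at 5.21 to 5.38 (-0.72, SE 0.12, adjusted p = 0.00829). For IGFBP3 and NRIP3 the cisplatin and vehicle arrays overlapped and osimertinib lay below both, whereas CPA4 was above vehicle in both treatments.

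**Figure D3:**
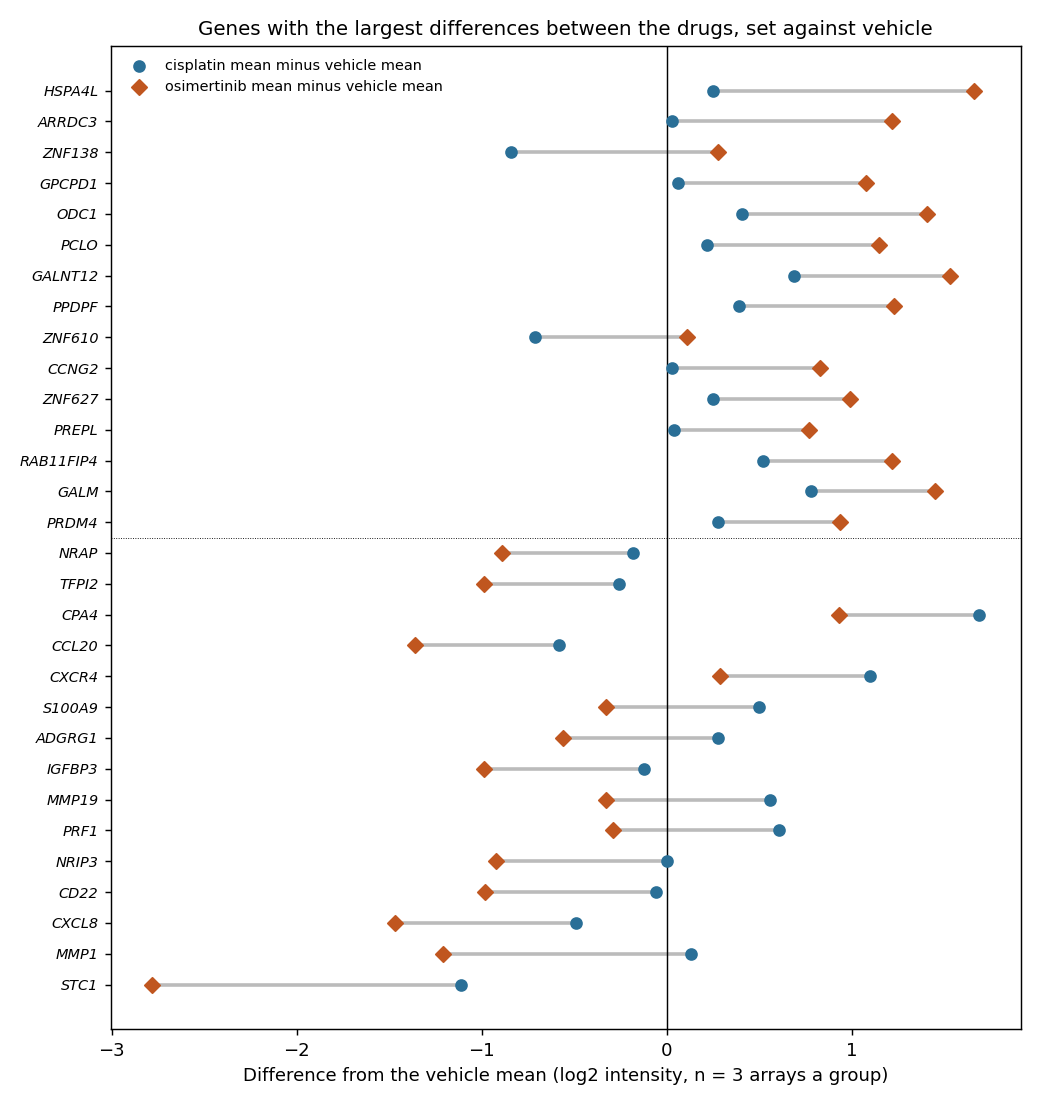
The 15 largest called differences in each direction among protein-coding genes, drawn as each drug's mean minus the vehicle mean (log2 intensity, n = 3 arrays a group) with circles for cisplatin, diamonds for osimertinib and a bar for the gap between the drugs. Both points share the same vehicle arrays. ARRDC3 and NRIP3 have the cisplatin point near 0, STC1 has both points below 0 and CPA4 both above.

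ERK output genes, which rise and fall with ERK activity, had 4 of 16 tested members higher with cisplatin (0.981% of all tested genes) and 0 higher with osimertinib (0.766%). The median of the list was -0.042, with 9 members below 0 and 7 above. EGR1, an immediate-early transcription factor, read 7.56, 7.64 and 7.49 with osimertinib, 7.91, 8.02 and 8.07 with cisplatin and 7.03 to 7.11 with vehicle, and so was above vehicle in both treatments (-0.44, SE 0.069, adjusted p = 0.00452). SPRY4, a feedback inhibitor of receptor tyrosine kinase signalling, read 6.87, 6.98 and 6.81 against 7.23, 7.38 and 7.54, with vehicle at 7.27 to 7.36 (-0.49, SE 0.084, adjusted p = 0.00838; 0.0521 without cisplatin 3). HBEGF, a ligand of EGFR, read 9.02 to 9.09 against 9.25 to 9.37, with vehicle at 9.05 to 9.13 (-0.26, SE 0.050, adjusted p = 0.019; 0.161 without trend and robust fitting). IER3, an early response gene also counted as an NF-kB target, read 6.66 to 6.85 against 7.21 to 7.26, with vehicle at 7.44 to 7.83 (-0.47, SE 0.096, adjusted p = 0.023; 0.270 as the mean over all rows of the gene). The calls of HBEGF and IER3 ended without cisplatin 2 (adjusted p = 0.0973 and 0.0772), cisplatin 3 (0.0774 and 0.105), osimertinib 1 (0.068 and 0.0979) or osimertinib 3 (0.0714 and 0.0771).

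The other 12 tested members of the ERK list were not called. DUSP6, the phosphatase that removes ERK's activating phosphates and a common readout of the cascade, read 10.26 to 10.29 with osimertinib and 10.19 to 10.24 with cisplatin. Both lay above vehicle at 9.65 to 9.72, and the drugs differed by 0.06 (95% interval -0.02 to 0.15, adjusted p = 0.584). FOSL1, an AP-1 subunit, differed by -0.42 (adjusted p = 0.082) and MYC by 0.41 (adjusted p = 0.108), in opposite directions and neither called. Of the 9 tested genes for ERBB receptors, ligands and adaptors, HBEGF alone was called (1.75% of all tested genes). In this list 8 were below 0, at a median of -0.145. ERBB4 differed by -0.21 (adjusted p = 0.516), SHC1 by -0.19 (0.531) and SOS1, the exchange factor that activates RAS, by 0.16 (0.393). In the ERK list 2 members were called without cisplatin 2, 1 without cisplatin 3 and 2 without osimertinib 3.

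The upstream stretch of EGR1 is shown because serum response factor and its ERK-regulated partners act on this gene through CArG boxes. Capitals mark the 2 matches to the CArG letters in the 150 bases before the start (RefSeq, GRCh38.p14).
EGR1, chr5:138465329-138465478, plus strand: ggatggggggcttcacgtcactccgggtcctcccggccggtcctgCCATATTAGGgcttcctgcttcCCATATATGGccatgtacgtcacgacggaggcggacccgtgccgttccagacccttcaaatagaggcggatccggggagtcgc
EGR1 was the only called gene with such a match within 250 bases, 1 of 53 higher with cisplatin and 0 of 45 higher with osimertinib, against 1.02% of tested genes and 1.14% of all promoters.

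The list of complement and coagulation genes had 4 of 10 tested members higher with cisplatin (0.981% of all tested genes) and 0 higher with osimertinib (0.766% of all), at a median of -0.196. The complement components C3, C2, CFD and C5 differed by 0.20, -0.03, 0.02 and 0.01 (adjusted p = 0.263 to 0.986) and the protein S gene PROS1 by -0.01 (0.995). THBD, thrombomodulin, which turns thrombin to an anticoagulant role, read 9.41, 9.49 and 9.48 with osimertinib, 9.80, 10.00 and 9.87 with cisplatin and 8.83 to 9.19 with vehicle (-0.43, SE 0.079, adjusted p = 0.0131). TFPI, the inhibitor of the tissue factor pathway, read 5.62, 5.31 and 5.28 against 5.86, 5.93 and 6.0, with vehicle at 5.33 to 5.46 (-0.52, SE 0.11, adjusted p = 0.0262). TFPI2, a related Kunitz-type inhibitor, read 5.21, 4.58 and 4.68 against 5.53 to 5.57, with vehicle at 5.53 to 6.06 (-0.72, SE 0.16, adjusted p = 0.0396). C5AR2, a receptor of the complement fragment C5a, read 7.70 to 7.97 against 8.15 to 8.25, with vehicle at 8.17 to 8.40 (-0.36, SE 0.081, adjusted p = 0.0389), and the main C5a receptor C5AR1 differed by -0.37 without passing (adjusted p = 0.0706). None of the 4 calls held on leaving out each array. THBD ended without cisplatin 2 or 3 or osimertinib 1 (adjusted p = 0.0521 to 0.0676), and TFPI without cisplatin 2 or 3 or osimertinib 2 or 3 (0.0841 to 0.119). TFPI2 ended without vehicle 2, any cisplatin array, or osimertinib 2 or 3 (0.0674 to 0.163), and C5AR2 without vehicle 1 or 3, any cisplatin array, or osimertinib 1 or 2 (0.0521 to 0.164). The list's count was 0 without cisplatin 2 or cisplatin 3, 1 without osimertinib 2, and 2 without osimertinib 1 or osimertinib 3.

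**Figure D4:**
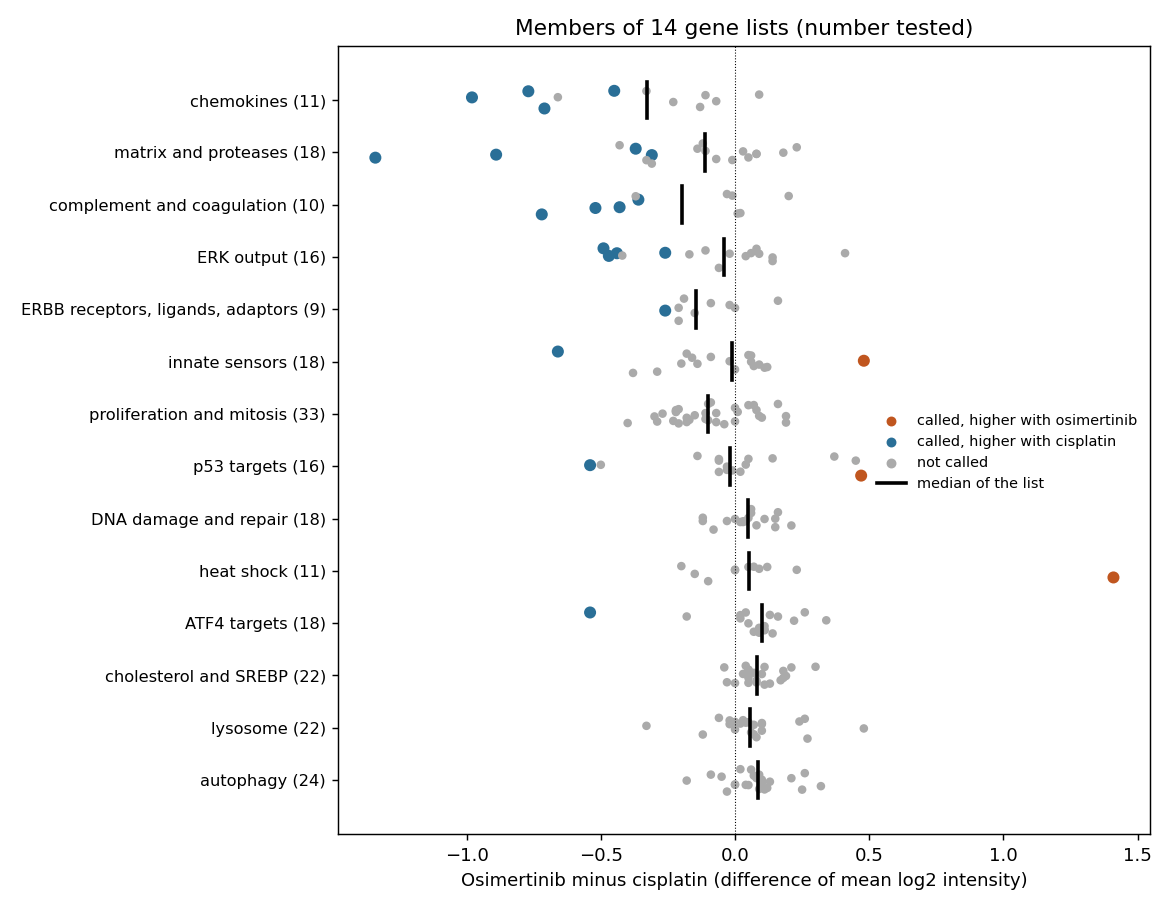
Members of 14 gene lists, each point a tested gene at its osimertinib minus cisplatin difference in mean log2 intensity (x axis), coloured where called, with the list's median as a bar and the number tested in brackets. The chemokine list has the lowest median (-0.328), and HSPA4L stands alone at 1.41 in the heat shock list. Vertical placement within a list carries no value.

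Innate sensors had 1 of 18 tested members higher with osimertinib (0.766% of all tested genes) and 1 higher with cisplatin (0.981%), and both were Toll-like receptors. TLR2, the receptor of bacterial lipopeptides, read 7.23, 7.16 and 7.10 with osimertinib, 7.79, 7.84 and 7.84 with cisplatin and 7.94 to 8.02 with vehicle (-0.66, SE 0.062, 1.58-fold, adjusted p = 8.71e-05). TLR4, the receptor of bacterial lipopolysaccharide, read 6.46, 6.42 and 6.31 with osimertinib, 5.69, 6.07 and 5.98 with cisplatin and 6.23 to 6.47 with vehicle (0.48, SE 0.11, adjusted p = 0.0405). For TLR4 the osimertinib and vehicle arrays overlapped and cisplatin was lowest, whereas for TLR2 osimertinib was lowest and all 3 groups were apart. The TLR2 call held in all 9 fits that left out 1 array, and that of TLR4 ended without any 1 array other than cisplatin 2 (adjusted p = 0.054 to 0.144). NF-kB targets had 2 of 16 higher with cisplatin (0.981% of all tested genes), CCL20 and IER3, at a median of 0.057 with 12 members above 0. Interferon-stimulated genes had 0 of 17 called (1.75% of all tested genes) and a median of -0.056. At an unadjusted limma p under 0.05, 2 were lower with osimertinib, where 11.7% of all tested genes passed in either direction.

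Stress response genes separated the drugs in single members, where 1.75% of all tested genes were called. HMOX1, haem oxygenase and an NRF2 target, read 9.37, 9.38 and 9.33 with osimertinib, 9.77, 9.93 and 9.89 with cisplatin and 9.17 to 9.26 with vehicle (-0.50, SE 0.050, adjusted p = 0.000178). It was the 1 called gene of 11 NRF2 targets (median -0.042). SESN2, sestrin-2, which restrains mTORC1 and is a target of both p53 and ATF4, read 6.02, 6.02 and 5.93 against 6.43, 6.58 and 6.56, both above vehicle at 4.95 to 5.33 (-0.54, SE 0.11, adjusted p = 0.0192). The SESN2 call ended without cisplatin 2 or 3 or any osimertinib array (adjusted p = 0.0587 to 0.101). It was the 1 called gene of 18 ATF4 targets, and its sign was against most of that list: 16 members were above 0 and the median was 0.101. The serine synthesis gene PSAT1 differed by 0.34 (adjusted p = 0.0775) and the alanyl-tRNA synthetase AARS1 by 0.22 (0.222). In the heat shock list HSPA4L was the 1 called gene of 11 (median 0.051). HSPB1, a small chaperone, differed by 0.23 (adjusted p = 0.254), the co-chaperone BAG3 by -0.20 (0.266) and HSPH1, another HSP110-family member, by 0.07 (95% interval -0.03 to 0.18, adjusted p = 0.624).

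Of 16 tested p53 targets, 2 were called (1.75% of all tested genes): CCNG1 was higher with osimertinib and SESN2 with cisplatin, and the median was -0.02. RRM2B, a ribonucleotide reductase subunit, differed by 0.37 (adjusted p = 0.0832), PLK2 by -0.50 (0.093) and TP53INP1 by 0.45 (0.192). GDF15, a secreted stress cytokine, read 9.31 to 9.45 with osimertinib and 9.41 to 9.45 with cisplatin, a difference of -0.03 (95% interval -0.22 to 0.16, adjusted p = 0.932). DNA damage and repair genes had 0 of 18 called (1.75% of all tested genes) and a median of 0.048. Their differences ran from -0.12 to 0.21, with 0 members at an unadjusted limma p under 0.05 (11.7% of all tested genes). MRE11, of the complex that binds broken DNA ends, differed by 0.21 (95% interval -0.09 to 0.51) and the kinase ATR by 0.11 (-0.09 to 0.31). Replication licensing genes had 0 of 18 called by limma (median 0.007), and 0 at an unadjusted p under 0.05, against the same shares of all tested genes. Proliferation genes had 0 of 33 called (1.75% of all tested genes), at a median of -0.101, with 22 members below 0. At an unadjusted limma p under 0.05, 8 were lower with osimertinib, where 11.7% of all tested genes passed in either direction. Among them TOP2A and PLK1 each differed by -0.22 (adjusted p = 0.197), KIF20A by -0.40 (0.288) and MKI67, the Ki-67 antigen, by -0.15 (0.331).

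Metabolic lists held few calls, where 1.75% of all tested genes were called. ODC1 (higher with osimertinib) and MXD1, a repressor that competes with MYC (higher with cisplatin), were the called genes of 26 MYC, polyamine and nucleolar genes (1.75% of all tested genes). MXD1 read 7.50 to 7.66 against 7.81 to 8.07, with vehicle at 7.14 to 7.34 (-0.37, adjusted p = 0.0396), and its call ended without any 1 array other than cisplatin 1 and vehicle 3 (adjusted p = 0.0555 to 0.174). Spermine synthase, SMS, which acts later in polyamine synthesis, differed by -0.30 (adjusted p = 0.122). GALM was the 1 called gene of 17 in glycolysis and related pathways (median -0.094). PPARG, the lipid-sensing nuclear receptor, was the 1 called gene of 18 in lipid handling, at 7.32, 7.21 and 7.23 with osimertinib, 6.71, 6.79 and 6.94 with cisplatin and 6.86 to 6.94 with vehicle (0.44, SE 0.078, adjusted p = 0.0117). The PPARG call ended without cisplatin 2 (adjusted p = 0.0505) or osimertinib 1 (0.0557). Cholesterol synthesis and SREBP genes had 0 of 22 called, with 19 members above 0 and a median of 0.082, and SREBF2, their transcription factor, differed by 0.30 (adjusted p = 0.0677). Lysosomal genes had 0 of 22 called (median 0.056) and autophagy genes 0 of 24 (median 0.085, 19 above 0). At an unadjusted limma p under 0.05, 4 cholesterol, 3 lysosomal and 4 autophagy genes were higher with osimertinib, and 1 lysosomal gene, CTSL, was lower. Of all tested genes, 11.7% passed that p in either direction. ASAH1, acid ceramidase, differed by 0.26 (adjusted p = 0.0595) and RB1CC1, of the autophagy initiation complex, by 0.25 (0.150).

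Macrophage surface and cytokine genes gave single calls, where 1.75% of all tested genes were called. CD209, a lectin of alternatively activated macrophages, read 6.91, 6.96 and 6.91 with osimertinib, 7.28, 7.48 and 7.58 with cisplatin and 5.99 to 6.45 with vehicle (-0.52, SE 0.11, adjusted p = 0.0341). It was the 1 called gene of 9 tested M2-associated genes (median -0.129). IL6R, the interleukin-6 receptor, was the 1 called gene of 15 cytokines and receptors (median -0.169), at 7.69 to 7.76 against 7.90 to 8.22, with vehicle at 7.79 to 7.90 (-0.36, adjusted p = 0.0341). CD209 lost its call without cisplatin 2 or 3 or any osimertinib array (adjusted p = 0.0874 to 0.142), and IL6R without any 1 array other than cisplatin 1 (0.0519 to 0.147). PIM1, a kinase induced by JAK and STAT signalling, was higher with osimertinib, the 1 called of 14 in its list, at 7.74 to 7.90 against 7.29 to 7.49, with vehicle at 6.89 to 7.17 (0.39, adjusted p = 0.0408). Its call ended without any 1 array other than vehicle 3 (adjusted p = 0.0521 to 0.162). Of the 16 genes tested in the glucocorticoid and FOXO list, ARRDC3 and CCNG2 were higher with osimertinib (0.766% of all tested genes) and 0 with cisplatin (0.981%), at a median of 0.035. Over all 40 pathway lists, 595 members were tested and 32 called, where 1.75% of all tested genes were. The lists were chosen with earlier results of these data known, so this count is a description and not a test. Of the 32, 9 were higher with osimertinib (0.766% of all tested genes) and 23 with cisplatin (0.981%). In 20 of the 40 lists 0 members were called, among them translation, splicing and apoptosis genes. Of these, 2, 2 and 5 genes had an unadjusted limma p under 0.05, as did 11.7% of all tested genes.

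MicroRNA genes held 3 calls among 252 tested, all higher with osimertinib, where 0.766% of all tested genes were. Mature sequences of the 3 are shown because names alone do not tell the transcripts apart. For MIR21 the 5p strand alone is shown. The array reads RNA that covers the hairpin or its host transcript, not the mature strand. The sequences are from RefSeq (GRCh38.p14), 5′ to 3′, with the seed (bases 2 to 8) in capitals, and the 5 seeds all differ.
hsa-miR-548g-5p: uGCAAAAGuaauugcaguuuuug
hsa-miR-548g-3p: aAAACUGUaauuacuuuuguac
hsa-miR-21-5p: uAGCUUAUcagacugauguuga
hsa-miR-3189-5p: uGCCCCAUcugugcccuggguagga
hsa-miR-3189-3p: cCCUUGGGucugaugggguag
MIR548G read 5.60, 5.79 and 6.28 with osimertinib, 4.50, 5.14 and 4.86 with cisplatin and 6.59 to 6.83 with vehicle, so that both treatments lay below vehicle and cisplatin was lowest (1.06, SE 0.18, 2.08-fold, adjusted p = 0.00733). MIR3189, which lies inside GDF15, read 6.45, 6.32 and 6.34 against 5.41, 6.0 and 5.85, with vehicle at 5.51 to 5.74 (0.62, SE 0.13, adjusted p = 0.0341), while GDF15 itself differed by -0.03 as given above. MIR21, which overlaps VMP1, read 5.60, 5.29 and 5.74 against 4.97 to 5.02, with vehicle at 4.51 to 4.81 (0.54, SE 0.13, adjusted p = 0.0486), and VMP1 differed by 0.21 (adjusted p = 0.353). The MIR548G call held in all 9 fits that left out 1 array. That of MIR3189 ended without vehicle 3, cisplatin 3 or any osimertinib array (adjusted p = 0.058 to 0.128), and that of MIR21 without any 1 array other than osimertinib 2 (0.0554 to 0.189). Over the 252 tested microRNA genes the median difference was -0.100, with 183 below 0 and 69 above. Among 256 long non-coding genes, MALAT1 (0.18, adjusted p = 0.0344) and MIR4435-2HG (0.22, adjusted p = 0.0222) were higher with osimertinib (0.766% of all tested genes). The MALAT1 call ended without vehicle 3, any cisplatin array, or osimertinib 2 or 3 (adjusted p = 0.058 to 0.144), and also under median centring of the arrays (0.161) and without trend and robust fitting (0.390). The MIR4435-2HG call ended without cisplatin 2 or 3 or any osimertinib array (adjusted p up to 0.0926), and as the mean over all rows of the gene (0.339).

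Markers of the labelled cell type and of other cell types were compared by level. Passing the level limit does not show that a cell type is present. Of 12 macrophage and monocyte markers named in the table, 8 passed the level limit and S100A9 alone was called (1.75% of all tested genes). Their summed log2 level was 72.1 to 74.0 with cisplatin, 70.5 to 72.1 with osimertinib and 70.8 to 71.5 with vehicle. CD68 differed by -0.21 (adjusted p = 0.0838), CSF1R by -0.21 (0.184) and CD14 by 0.12 (0.766). The CD14 means, 4.22 with vehicle, 4.28 with cisplatin and 4.40 with osimertinib, lay near the level limit of 4.28. Of the B-cell list, which holds CD22, 2 of 4 named markers were tested, with sums of 18.9 to 19.1 with cisplatin, 17.8 to 18.5 with osimertinib and 18.2 to 18.9 with vehicle, and PAX5 differed by 0.02 (adjusted p = 0.966). No tested marker of neutrophils (2 of 12 named), T and NK cells (3 of 10), dendritic cells (2 of 5), epithelium (4 of 11), endothelium (4 of 9) or erythroid cells and megakaryocytes (1 of 5) was called, and 1 of them, a neutrophil marker, had an unadjusted limma p under 0.05. The part of any other cell type in the differences was not tested.

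Of the 130 called genes, 43 (18 higher with osimertinib, 25 with cisplatin) were also called under each of the 18 other ways of processing in which they were tested. Of the genes described above, these 43 include HSPA4L, ARRDC3, ZNF138, GPCPD1, ODC1, GALNT12, PPDPF, PREPL, RAB11FIP4, PRDM4 and MIR548G on the osimertinib side. On the cisplatin side they include STC1, MMP1, MMP19, CXCL8, CCL20, CCL5, CCL3L1, CXCR4, CD22, ADGRG1, PRF1, S100A9, IGFBP3, CPA4, NRIP3, NRAP, TLR2, HMOX1 and EGR1. Leaving out 1 array at a time gave 54 to 147 calls, and 45 genes (19 and 26) were called in all 9 such fits.

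**Figure D5:**
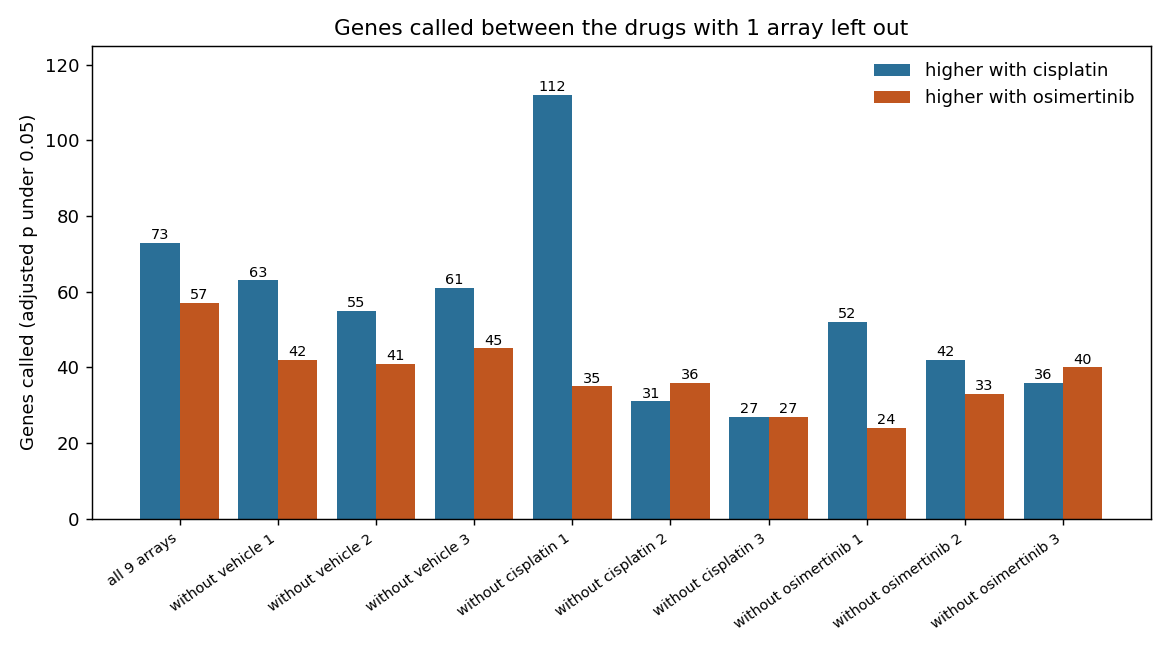
Number of genes called between the drugs (adjusted p under 0.05, y axis from 0) in the fit of all 9 arrays and with 1 array left out, as blue bars for genes higher with cisplatin and orange bars for genes higher with osimertinib. The count higher with cisplatin is 73 with all arrays, 112 without cisplatin 1 and 27 without cisplatin 3.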

How the data were processed

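Total RNA of 9 cultures was labelled and hybridised to 1 array each, and groups, doses and replicate numbers were taken from the labels. Per the labels' protocols, scans were turned into gene-level values by a provider with standard Affymetrix software. The submitters' processing notes list Affymetrix Power Tools. Its version, the background correction, the summarization and the base of the logarithm were not given in the sources used here. Values deposited by the authors run from 0.65 to 13.17 and were read as log2 intensity. Another base would alter each fold, but no call. Columns differed by a mean of 0.0385 between equal ranks, so between-array normalization had been done by the authors, and differences are relative to the bulk of transcripts. No read depth exists for arrays, and their number limits the precision.

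Of 53617 rows, the platform annotation, which can be old, names 16098 (30.0%) with 1 gene, 0 with several and 37519 with none. All 16098 Entrez identifiers matched RefSeq (GRCh38.p14). Of 14884 genes, 779 had several rows. The brightest row stood for a gene, and the 7442 genes at or above the median gene mean (4.28) were tested. Of these, 207 (2.78%) have 3 equal values within a group, which makes their spread look too small.

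Genes were tested with limma 3.58.1 (R 4.3.3): 3 group means over 9 arrays (6 residual degrees of freedom), the contrast osimertinib minus cisplatin, and empirical Bayes with trend and robust fitting. P-values were two-sided and adjusted by Benjamini-Hochberg. An exact test of 3 against 3 arrays cannot go below 0.1, so single genes rest on this fit. On simulated data with 200 changed genes among 7442, the fit recovered 89.4% of genes changed by 1 log2 unit, 55.2% at 0.5 and 8.96% at 0.25. With no change simulated it called 0 genes. The simulation drew noise separately for each gene and array, so it held no array-wide shifts like those of cisplatin 1 and osimertinib 1. Its rates therefore need not hold for the measured arrays.

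The text names the 15 largest called differences in each direction among protein-coding genes whose arrays do not overlap (provisional symbols only counted), up to 4 members of each described list by p, called non-coding genes and fixed genes. List members beyond these, CCL3L1, the relatives of ARRDC3, and the families in the closing section were chosen after their values were seen. The genes compared and the 40 pathway and 9 marker lists were chosen with earlier results of these data known. List members are counted from the fit over all genes, with no list test. Promoter letters were searched on both strands in the 250 bases before the start, for 98 of the 130 called genes with an entry. Alternatives changed the level filter, the normalization, the row per gene, the variance model, the arrays in the fit, the replicate block and the ties.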

Additional observations from a re-analysis of the deposited data

How the results depend on the processing

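The 130 calls (57 higher with osimertinib, 73 with cisplatin) became 76 (33 and 43) with no level filter, 63 (28 and 35) without trend and robust fitting, and 77 (32 and 45) with only the 6 drug arrays. They became 249 (113 and 136) with quantile normalization on top and 239 (115 and 124) with median centring, which kept 130 and 129 of the original calls. Leaving out 1 array gave 54 to 147 calls in all, 24 to 45 higher with osimertinib and 27 to 112 higher with cisplatin. Calls of at least 1.5-fold were 45, and 27 under a stricter level limit, which tests fewer genes by construction; leaving out 1 array gave 34 to 51. The 32 called list members became 21 with no level filter, 52 with quantile normalization, 49 with median centring, 18 without trend and robust fitting, and 14 to 31 on leaving out 1 array. Without trend and robust fitting, 2 matrix genes, 2 ERK output genes and 1 gene of the coagulation and complement list were called. That last list also had 1 with no level filter and 1 with only the 6 drug arrays. On leaving out 1 array the ranges were 1 to 5 for ERK output, 3 to 4 for chemokines, 0 to 3 for coagulation and complement, and 3 to 5 for matrix genes. Where not stated, the cause was not tested.

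With the replicate number as a block, 108 genes were called, 45 higher with osimertinib and 63 with cisplatin, 101 of the 130 kept their call, and the coagulation and complement list had 2. Deviations of same-numbered osimertinib and cisplatin arrays correlated at -0.227, -0.185 and -0.0357. Of the cisplatin arrays, 0 of 3 correlated best with their own number. Deviations within a group of 3 sum to 0, which ties these correlations together, and vehicle arrays were not compared. The check therefore cannot show whether equal numbers mark a shared culture or batch. Small differences were the limit of 3 arrays a group on simulated data without array-wide shifts.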

Other observations

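Several groups outside the lists held calls, and all were picked after their values were seen, so the counts are descriptions. Of 246 tested genes with a ZNF symbol, 6 were higher with osimertinib (0.766% of all tested genes) and 0 with cisplatin (0.981%), at a median of 0.034. Beside those described above they were ZNF85 (0.63, adjusted p = 0.00591), ZNF740 (0.50, adjusted p = 0.00829) and ZNF100 (0.43, adjusted p = 0.015). ZNF85 read 6.54, 6.65 and 6.35 with osimertinib, 5.79, 5.88 and 5.98 with cisplatin and 6.44 to 6.69 with vehicle, so the osimertinib and vehicle arrays overlapped and cisplatin lay below, as in ZNF138 and ZNF610. The ZNF100 call ended without cisplatin 2 or 3 or osimertinib 1 or 3 (adjusted p = 0.0521 to 0.0671). Of 19 sorting nexins, proteins of endosomal transport, 3 were higher with osimertinib (0.766% of all tested genes) and 0 with cisplatin (0.981%), at a median of 0.128. These were SNX3 at 0.34, SNX4 at 0.45 and SNX30 at 0.51. The highest adjusted p on leaving out 1 array was 0.180 for SNX3, 0.134 for SNX4 and 0.120 for SNX30.

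Receptors and enzymes beyond the leading genes also differed. SUCNR1, the receptor of succinate, read 7.30, 6.98 and 6.84 with osimertinib, 6.21, 6.50 and 6.43 with cisplatin and 5.73 to 5.88 with vehicle (0.66, adjusted p = 0.0114). TMEM38B, a cation channel of the endoplasmic reticulum, read 7.91, 7.67 and 7.66 against 7.10, 7.11 and 7.11, with vehicle at 6.61 to 6.84 (0.64, adjusted p = 0.00117). PLXDC2, a membrane protein with a plexin domain, read 9.95 to 9.99 against 9.46 to 9.53 (0.49, adjusted p = 3.34e-05). Its vehicle value was 9.72 on each array, so its SE may be too small. Without trend and robust fitting its adjusted p was 0.00689. ELOVL5, which lengthens polyunsaturated fatty acids, was 0.33 higher with osimertinib (adjusted p = 0.00331; 0.0653 without trend and robust fitting). On the cisplatin side, CEMIP, which takes part in hyaluronan breakdown, read 7.19 to 7.23 with osimertinib and 7.66 to 8.0 with cisplatin (-0.65, adjusted p = 0.00129). ANPEP, the aminopeptidase CD13, read 9.94 to 10.14 against 10.43 to 10.52, with vehicle at 9.88 to 9.92 (-0.43, adjusted p = 0.000477). CD226, an adhesion receptor, read 8.17 to 8.20 against 8.45 to 8.53, with vehicle at 8.46 to 8.47 (-0.30, adjusted p = 0.00917; 0.071 without cisplatin 3 and 0.0834 without trend and robust fitting). Leaving out any 1 array kept the calls of SUCNR1, TMEM38B, PLXDC2, ELOVL5, CEMIP and ANPEP.

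Of 10112 unnamed rows at or above the level limit, 19 (0.188%) were called between the drugs, 9 higher with osimertinib and 10 with cisplatin, with differences from -1.29 to 2.07, and 873 had an unadjusted p under 0.05.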
